A study of Mus musculus with 8 samples.

Results

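The transcription factors that set and keep the identity of hepatocytes were compared between Pemt-/- and Pemt+/+ liver during the first weeks of a chow rich in fat and sucrose (HFHS chow). The set held 9 genes, namely Hnf4a, Cebpa, Cebpb, Foxa1, Foxa2, Foxa3, Nr5a2, Onecut1 and Prox1, and every probe set that the annotation paired with only 1 of them was used. That gave 19 of the 45037 probe sets on the array, and 9 of the 18193 genes that had a probe set of their own. The groups were Pemt-/- mice, which lack phosphatidylethanolamine N-methyltransferase, the enzyme that makes phosphatidylcholine from phosphatidylethanolamine, and Pemt+/+ mice. All mice of both groups were male and ate HFHS chow, and liver was taken after 1, 2, 3 and 4 weeks of it. Each genotype had 1 array per week, so 4 arrays in all. The methods give as many mice as arrays for each genotype, and neither they nor the labels state outright that an array held RNA of 1 mouse. The labels name no deletion restricted to hepatocytes, and whole liver was measured, so fewer cells of a type and less RNA per cell cannot be told apart.

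Hepatocyte identity rests on a small network of DNA-binding proteins that occupy each other's promoters and those of the genes for plasma proteins, bile acid enzymes and gluconeogenic enzymes. HNF4A and the FOXA proteins open and hold liver enhancers, the C/EBP proteins act on many of the same genes, and NR5A2, ONECUT1 and PROX1 tune bile acid, developmental and metabolic programmes around them. Loss of HNF4A from the adult mouse liver is known to lower many liver genes and to raise hepatocyte proliferation.

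The promoter sequences of 4 starts are shown because Hnf4a and Cebpa were the members that passed the test, because Hnf4a uses a pair of promoters, and because Cebpb, a close relative of Cebpa, did not pass. The study set methylation of liver DNA beside expression to select genes, Hnf4a among them, so the number of CpG dinucleotides, the sites of DNA methylation, is given for each. Methylation itself was not analysed here. Each window runs 5' to 3' over 300 bases in RefSeq GRCm38.p6, with 250 bases before the annotated start and 50 bases from it on. Capitals mark matches, on either strand, to TATAAA for the TATA box, GTTAAT for the HNF1 half-site, ATTGAT for the ONECUT core, TTGCNNAA for C/EBP and CAAAGTCC for the HNF4 core. For FOXA, TGTTTAC was searched together with TGTTTGC, likewise TGTTTAT and also TGTTTGT. No letters of one motif match overlapped another in the windows shown. A match describes letters and is not a bound site.
Hnf4a, upstream start (chr2:163506607-163506906, + strand): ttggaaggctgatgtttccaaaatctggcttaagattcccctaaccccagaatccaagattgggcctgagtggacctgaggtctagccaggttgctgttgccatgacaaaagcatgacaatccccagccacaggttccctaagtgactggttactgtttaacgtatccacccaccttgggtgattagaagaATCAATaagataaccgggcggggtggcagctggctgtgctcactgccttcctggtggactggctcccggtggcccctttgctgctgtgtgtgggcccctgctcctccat
Hnf4a, downstream start (chr2:163546905-163547204, + strand): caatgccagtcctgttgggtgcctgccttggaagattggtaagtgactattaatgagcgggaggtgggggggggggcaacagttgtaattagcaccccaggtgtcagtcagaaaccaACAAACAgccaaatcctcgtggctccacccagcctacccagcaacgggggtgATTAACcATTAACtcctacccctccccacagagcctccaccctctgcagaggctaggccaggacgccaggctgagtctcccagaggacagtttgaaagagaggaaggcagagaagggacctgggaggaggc
Cebpa (chr7:35119043-35119342, + strand): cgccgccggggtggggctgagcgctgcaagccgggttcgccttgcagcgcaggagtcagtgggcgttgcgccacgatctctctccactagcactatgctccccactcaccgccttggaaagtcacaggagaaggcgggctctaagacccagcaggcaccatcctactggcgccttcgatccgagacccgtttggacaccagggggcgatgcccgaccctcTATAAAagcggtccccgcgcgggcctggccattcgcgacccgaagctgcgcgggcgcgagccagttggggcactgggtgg
Cebpb (chr2:167688665-167688964, + strand): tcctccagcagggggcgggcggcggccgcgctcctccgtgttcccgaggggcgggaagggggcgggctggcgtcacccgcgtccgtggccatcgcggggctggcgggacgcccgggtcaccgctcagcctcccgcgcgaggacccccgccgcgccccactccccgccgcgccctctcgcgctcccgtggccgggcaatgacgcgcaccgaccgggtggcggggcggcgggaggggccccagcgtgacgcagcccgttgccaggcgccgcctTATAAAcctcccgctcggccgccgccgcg

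The Hnf4a windows held fewer CpG than the median of 7 over all windows, and the Cebpa and Cebpb windows held many more. The upstream and the downstream start of Hnf4a lie 40298 bases apart, and each window held 4 CpG, with fewer in 31.4% of the 32851 windows of the table. The Cebpa window held 29 CpG, with fewer in 87.1% of windows, and the Cebpb window held 50, with fewer in 99.1%. In the downstream Hnf4a window, which lies at the start that adult liver uses, the HNF1 half-site matched 81 and 74 bases before the start and the FOXA letters matched 133 bases before it. In the upstream window the ONECUT core matched 59 bases before the start. The TATA box letters stood 30 bases before the start of Cebpa and 21 bases after the start of Cebpb as annotated. Over the 14 windows of the 9 members, the TATA box was found in 6, the FOXA letters in 4, the HNF1 half-site in 3, the ONECUT core in 2 and the C/EBP letters in 1. The shares of all windows were 13.6% for the TATA box, 17.7% for FOXA, 7.1% for the HNF1 half-site, 7.54% for the ONECUT core and 10.8% for C/EBP. No member window held the letters of the HNF4 core, which 1.42% of all windows held.

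The values are linear intensities as the authors deposited them, with the trimmed mean of every array at 500.0. They were analysed as log2(intensity + 16), and precision is limited by having 8 arrays. Differences are Pemt-/- minus Pemt+/+ on that scale, fitted with limma over the 8 arrays with the week as a block, and adjusted over the 27022 probe sets above the 40th percentile of mean intensity. The threshold was an adjusted p under 0.05, and the p-values measure only the spread between these arrays. The targeted gene Pemt was lower by far in each week, with a fitted difference of -4.54 ± 0.10 (SE, 4 arrays per genotype, limma adjusted p = 5.0e-07). Between arrays, the upper quartile of intensity was 384 to 425 in Pemt-/- liver and 363 to 370 in Pemt+/+ liver. The 100 brightest probe sets took 9.01% to 10.5% of the signal in Pemt-/- liver and 10.9% to 11.5% in Pemt+/+ liver. Hepatocyte markers were at high levels on every array.

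Hnf4a and Cebpa were lower in Pemt-/- liver, and no member passed the test as higher. Of the 18 member probe sets bright enough to test, 3 passed the limma threshold as lower, of Hnf4a and Cebpa, where 5.86% of all 27022 tested probe sets were called lower. None passed as higher, where 10.3% of all tested probe sets did. The other 15 did not pass, and 4 of these had an adjusted p between 0.05 and 0.06. The fitted difference was below 0 for 14 probe sets and above 0 for 4. Centring the arrays on hepatocyte markers adds the same 0.38 to every probe set, so the 9 of those 14 that lay within 0.38 of 0 turned above 0. The median over the 18 was -0.28, beside 0.02 for all tested probe sets. By gene, 2 of 9 members were lower by their brightest probe set, where 7.51% of 12949 genes were. With only the brightest probe set of each gene in the fit, which tests fewer values, 4 of 9 members were lower, where 8.19% of genes were, since Foxa1 and Foxa3 passed too (limma adjusted p of 0.0469 and 0.0433). At an unadjusted p under 0.05 there were 8 member probe sets, all with differences below 0, where 13% of all tested probe sets were that low. The study named Hnf4a in part from these same arrays, so its p-value is not independent evidence.

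**Figure D1:**
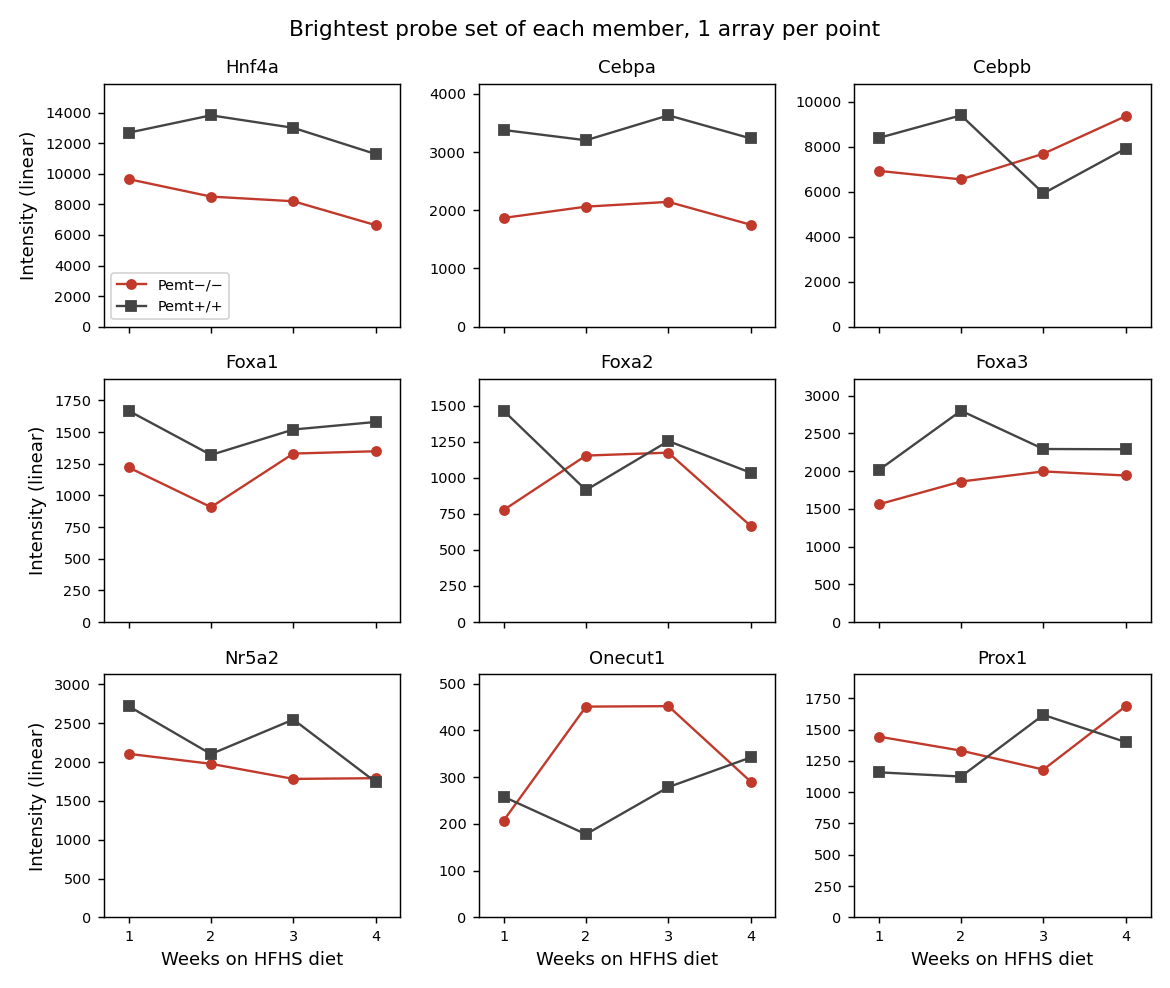
Intensity on a linear scale against weeks of HFHS chow for the brightest probe set of each of the 9 members. Each point is 1 array, red circles are Pemt-/- and grey squares Pemt+/+, and the axes start at 0. The lines of Hnf4a, Cebpa and Foxa3 do not overlap between genotypes, whereas those of Cebpb, Foxa2, Nr5a2, Onecut1 and Prox1 cross.

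Hnf4a encodes a nuclear receptor at the top of the liver network. Its brightest probe set, 1427001_s_at, gave 9658, 8515, 8209 and 6643 in Pemt-/- liver at weeks 1 to 4, and 12698, 13836, 13017 and 11298 in Pemt+/+ liver. Every Pemt-/- array lay below every Pemt+/+ array, and the lowest value of all was Pemt-/- liver at week 4. The mean was 8256 ± 1243 in Pemt-/- liver and 12712 ± 1057 in Pemt+/+ liver (SD, n = 4 each), and these SDs include change over the weeks. The weekly differences were -0.39, -0.70, -0.66 and -0.76, and the fitted difference was -0.63 ± 0.09 (limma adjusted p = 0.00334), which is 1.55-fold lower in Pemt-/- liver.

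The other Hnf4a probe sets ran in the same direction and differed in size. Probe set 1427000_at read 4539, 3235, 2906 and 3025 in Pemt-/- liver over weeks 1 to 4, against 5076, 4734, 3966 and 3507 in Pemt+/+ liver. It was lower in each week, but the groups overlapped through the week 1 array of Pemt-/- liver, and the fitted difference of -0.34 ± 0.10 did not pass (limma adjusted p = 0.0513). Probe set 1421983_s_at read 1347, 905, 780 and 526 in Pemt-/- liver and 1377, 1513, 1257 and 1142 in Pemt+/+ liver. The genotypes were almost level at week 1 and furthest apart at week 4, with weekly differences of -0.03, -0.73, -0.68 and -1.10. The fitted difference was -0.63 ± 0.16 (limma adjusted p = 0.0317), and the call was lost without week 2, 3 or 4 (adjusted p of 0.0734, 0.116 and 0.134). Probe set 1450447_at, the dimmest, read 193, 112, 127 and 99.8 in Pemt-/- liver and 203, 180, 166 and 257 in Pemt+/+ liver, and its difference of -0.56 ± 0.22 did not pass (adjusted p = 0.112). All 4 probe sets were lower in Pemt-/- liver in all 4 weeks. Which transcript each one reads is not given in the sources used here.

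**Figure D2:**
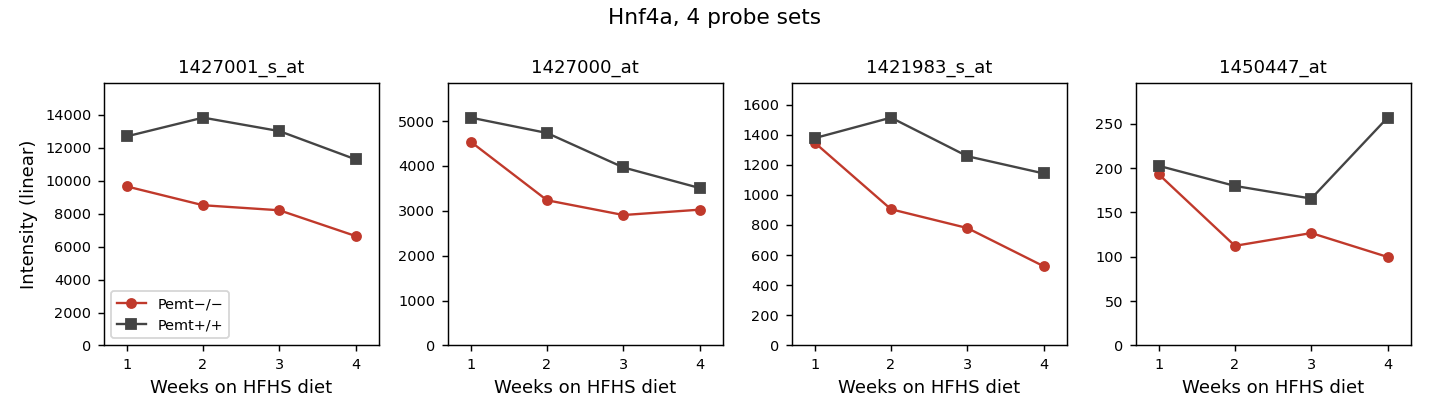
Intensity on a linear scale against weeks of HFHS chow for the 4 probe sets of Hnf4a, 1 panel each, with 1 array per point, Pemt-/- as red circles and Pemt+/+ as grey squares. In 1421983_s_at and 1450447_at the genotypes start close together at week 1, at 1347 and 193 in Pemt-/- liver against 1377 and 203 in Pemt+/+ liver, and are widest apart at week 4.

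No member passed the test of a difference in change over time between the genotypes. In the limma fit of the slope per week, 0 of the 18 member probe sets passed, and 0 of 27022 overall (0%), with adjusted p of 0.624 to 0.999 for the members. At an unadjusted p under 0.05 there was 1 member probe set, Hnf4a 1421983_s_at, where 6.73% of all tested probe sets reached that level. Its log2 intensity changed by -0.42 per week in Pemt-/- liver and by -0.11 per week in Pemt+/+ liver, a slope difference of -0.31 ± 0.09 (SE, limma adjusted p = 0.624). The brightest Hnf4a probe set changed by -0.17 per week in Pemt-/- liver and by -0.06 per week in Pemt+/+ liver.

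Cebpa encodes C/EBP alpha, which drives metabolic genes of the resting adult hepatocyte and holds back its division, and it had the lowest fitted difference of the members. Its only probe set, 1418982_at, read 1868, 2062, 2144 and 1750 in Pemt-/- liver over weeks 1 to 4, and 3379, 3202, 3631 and 3234 in Pemt+/+ liver. The groups were far apart, and the highest Pemt-/- array stayed well below the lowest Pemt+/+ array. The mean was 1956 ± 179 in Pemt-/- liver and 3362 ± 195 in Pemt+/+ liver (SD, n = 4 each). The weekly differences of -0.85, -0.63, -0.76 and -0.88 were already wide at the first week, and the fitted difference was -0.78 ± 0.09 (limma adjusted p = 0.00165), or 1.72-fold lower. The call held without any 1 week and under each other setting tried.

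Cebpb encodes C/EBP beta, the relative that rises in liver after injury and in the acute phase. Probe set 1418901_at read 6929, 6549, 7690 and 9362 in Pemt-/- liver, against 8391, 9398, 5927 and 7920 in Pemt+/+ liver. Pemt-/- liver was lower at weeks 1 and 2 and higher at weeks 3 and 4, with weekly differences of -0.28, -0.52, 0.37 and 0.24. The fitted difference was -0.04 ± 0.15 (limma adjusted p = 0.870), and its sign turned under some scalings of the arrays. The second probe set, 1427844_a_at, read 1690, 1346, 1742 and 2169 in Pemt-/- liver and 1977, 1882, 1343 and 2084 in Pemt+/+ liver. It gave the same order in each week, with differences of -0.22, -0.48, 0.37 and 0.06 and a fitted value of -0.07 ± 0.14 (adjusted p = 0.784).

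The Foxa genes encode forkhead proteins that bind closed chromatin in the liver lineage. Foxa1, read by 1418496_at, gave 1221, 907, 1331 and 1349 in Pemt-/- liver and 1669, 1320, 1520 and 1580 in Pemt+/+ liver. Foxa3, read by 1431900_a_at, gave 1559, 1862, 1995 and 1942 in Pemt-/- liver and 2012, 2800, 2293 and 2289 in Pemt+/+ liver. Both were lower in Pemt-/- liver in each week, and Foxa3 was the third member probe set, after those of Hnf4a and Cebpa, whose groups did not overlap, by a narrow margin between week 3 of Pemt-/- and week 1 of Pemt+/+. Among all tested probe sets, 8.96% were lower with no overlap. Neither passed the limma threshold, at -0.35 ± 0.11 for Foxa1 (adjusted p = 0.0599) and -0.35 ± 0.10 for Foxa3 (adjusted p = 0.0546).

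The weekly differences of Foxa1 and Foxa3 followed each other closely and those of Foxa2 did not. Foxa1 differed by -0.45, -0.53, -0.19 and -0.23 and Foxa3 by -0.36, -0.58, -0.20 and -0.24, with an SD over the weeks of 0.06 between them. That was the smallest SD among the 36 pairs of members, and the likeness was not tested. Foxa1 and Foxa3 were both widest apart between genotypes at week 2. Foxa2, read by 1422833_at, gave 777, 1154, 1175 and 666 in Pemt-/- liver, against 1465, 915, 1255 and 1035 in Pemt+/+ liver. Its weekly differences were -0.90, 0.33, -0.09 and -0.62, so Pemt-/- was furthest below Pemt+/+ at week 1 and above it at week 2, and the fitted difference of -0.32 ± 0.19 did not pass (limma adjusted p = 0.291).

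Nr5a2 encodes LRH-1, a nuclear receptor that controls bile acid synthesis genes. Its brightest probe set, 1456521_at, read 2106, 1977, 1783 and 1792 in Pemt-/- liver and 2719, 2103, 2547 and 1742 in Pemt+/+ liver, so the genotypes were nearly level at weeks 2 and 4. Probe set 1420410_at read 988, 1254, 1148 and 993 in Pemt-/- liver and 1472, 1118, 1401 and 1157 in Pemt+/+ liver, and it was lower in 3 of 4 weeks. The fitted differences were -0.23 ± 0.12 (limma adjusted p = 0.220) and -0.23 ± 0.13 (adjusted p = 0.286). Only 1449706_s_at was lower in all 4 weeks, with 580, 395, 437 and 426 in Pemt-/- liver and 709, 551, 622 and 539 in Pemt+/+ liver, and its difference of -0.39 ± 0.12 missed the threshold (adjusted p = 0.0538). The fourth probe set, 1449707_at, was too dim to test, at 35.8 to 49.9 in Pemt-/- liver and 13.3 to 55.6 in Pemt+/+ liver.

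Onecut1 encodes HNF6, a factor of liver and bile duct development, and its fitted values were the highest among the members without passing the test. Probe set 1450252_at read 207, 451, 452 and 290 in Pemt-/- liver, against 258, 178, 279 and 342 in Pemt+/+ liver. Pemt-/- liver was higher at weeks 2 and 3 and lower at weeks 1 and 4. Probe set 1421447_at read 169, 390, 212 and 149 in Pemt-/- liver and 95.8, 175, 211 and 218 in Pemt+/+ liver. The fitted differences were 0.35 ± 0.26 (limma adjusted p = 0.394) and 0.33 ± 0.26 (adjusted p = 0.430), and the probe sets agreed in direction at weeks 2, 3 and 4 only. The values rest largely on week 2, since they were 0.048 and 0.077 without it, and they were 0.55 and 0.61 without week 4. Both were more than 2-fold higher at week 2, with weekly differences of 1.27 and 1.09.

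Prox1 encodes a homeobox protein of hepatocytes and of lymphatic endothelium, and its probe sets did not run in one direction. Probe set 1437894_at read 1444, 1331, 1180 and 1687 in Pemt-/- liver and 1158, 1125, 1617 and 1400 in Pemt+/+ liver, with only week 3 lower in Pemt-/-. Its fitted difference was 0.09 ± 0.14 (limma adjusted p = 0.707). Probe set 1457432_at gave 0.21 ± 0.15 (adjusted p = 0.371), with 270 to 312 in Pemt-/- liver and 212 to 290 in Pemt+/+ liver. Probe set 1421336_at gave -0.23 ± 0.17 (adjusted p = 0.403) and was lower in all 4 weeks, with 101 to 142 in Pemt-/- liver and 124 to 191 in Pemt+/+ liver.

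**Figure D3:**
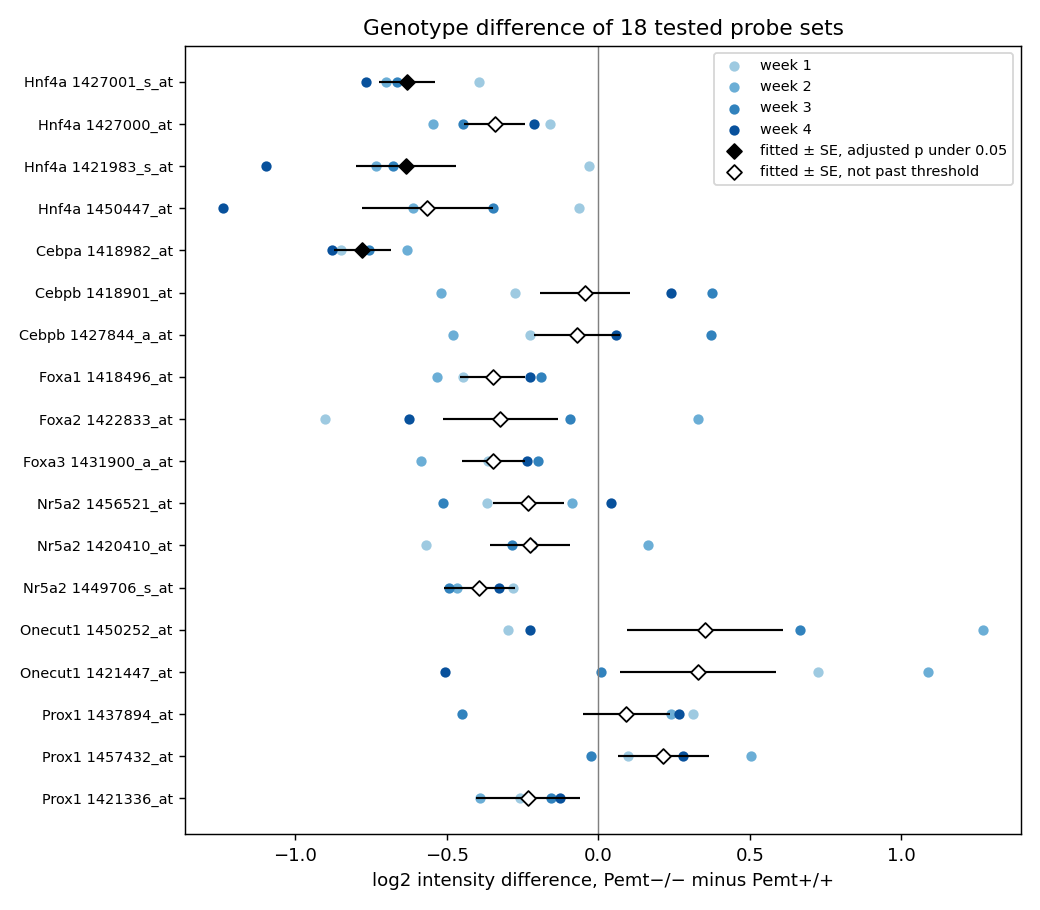
Genotype difference in log2(intensity + 16), Pemt-/- minus Pemt+/+, for the 18 tested probe sets of the 9 members. Diamonds with bars are the limma value ± SE, filled where the adjusted p was under 0.05, and blue points from light to dark are weeks 1 to 4, with 1 array per genotype in each. The filled diamonds are those of Hnf4a 1427001_s_at at -0.63, Hnf4a 1421983_s_at at -0.63 and Cebpa at -0.78, and the weekly points of Onecut1 spread most widely to the right.

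By the ratio that the study used to extract genes in each week, few member values were extreme. Of the 72 pairs of a tested member probe set and a week, 2 had a ratio of Pemt-/- to Pemt+/+ of 0.5 or less, where 5.3% of all such pairs did. These were Hnf4a 1421983_s_at and 1450447_at, both at week 4. A ratio of 2 or more was found in 2 pairs, where 8.52% of all pairs reached it, and these were both probe sets of Onecut1 at week 2. The ratio of Cebpa lay between 0.541 and 0.644 in every week, so it was never past that limit.

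Set against one another within each week, Cebpa and Hnf4a lay below most other members and Onecut1 above most. Of the 36 pairs of members, each by its brightest probe set, 17 kept the same order of genotype differences in all 4 weeks, including 6 pairs with Cebpa, 5 with Hnf4a and 5 with Onecut1. The pairs share members, so they are not independent, and pairs of other genes were not counted. With 4 weeks the exact two-sided sign-flip permutation test cannot go below p = 0.125, and the smallest value adjusted over the 36 pairs was 0.265, so no pair passed. Cebpa lay below Cebpb by -0.57, -0.11, -1.13 and -1.12 over weeks 1 to 4, a mean of -0.73 ± 0.49 (SD over 4 weeks, exact p = 0.125, adjusted p = 0.265). Cebpa lay below Prox1 by a mean of -0.87 ± 0.40 and below Onecut1 by -1.13 ± 0.64, and Hnf4a below Onecut1 by -0.98 ± 0.83, each in all 4 weeks. Between Hnf4a and Cebpa the order was not the same in every week, with a mean of 0.15 ± 0.22, and the gap was widest at week 1 (0.46). Foxa2 kept its order with 1 other member, Onecut1. Some of the orders rest on small gaps. Foxa1 and Foxa3 were nearly level with Onecut1 at week 4. Hnf4a was nearly level with Foxa3 and Nr5a2 at week 1 (-0.029 and -0.028).

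Many markers of cell types also differed between the genotypes, and their part in the member results was not tested. Of 26 hepatocyte markers measured, 22 were lower and 0 higher in Pemt-/- liver (limma adjusted p under 0.05, brightest probe set per gene), where 7.51% of all genes were called lower and 12.6% higher. The median was -0.41 against 0.02 for all genes, and the summed intensity was 694706 to 897717 in Pemt-/- liver and 987550 to 1050470 in Pemt+/+ liver. Fgb and Fga, subunits of fibrinogen, led this list at -0.64 ± 0.08 and -0.56 ± 0.08 (adjusted p of 0.0016 and 0.00279). By week the marker median was -0.46, -0.18, -0.52 and -0.47, so it was smallest at week 2. The difference of Cebpa was also smallest at week 2 (-0.63), and that of the brightest Hnf4a probe set was smallest at week 1 (-0.39). The other members varied by their brightest probe sets. Foxa1, Foxa3 and Cebpb were furthest below Pemt+/+ at week 2 (-0.53, -0.58 and -0.52). Foxa2 and Onecut1 had their highest difference at week 2 (0.33 and 1.27), which was also the week of the highest marker median. Nr5a2 was highest at week 4 (0.04) and Prox1 at week 1 (0.31).

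Markers of other cells were mostly higher, as were proliferation markers, which do not belong to 1 cell type. Each sum covers every marker with a probe set, tested or not. That made 20 macrophage, 10 cholangiocyte and progenitor and 9 lymphocyte markers, of which fewer were tested. Of 19 macrophage markers, 17 were higher, with a summed intensity of 45533 to 70798 in Pemt-/- liver and 18600 to 27391 in Pemt+/+ liver, led by Ccr2, at 246 to 591 in Pemt-/- liver and 47.3 to 67.6 in Pemt+/+ liver, and Gpnmb, with a difference of 4.53 ± 0.45. All 14 stellate cell and matrix markers measured were higher, with sums of 48013 to 67517 in Pemt-/- liver and 17159 to 22826 in Pemt+/+ liver, among them Dcn and Reln at 1.07 and 1.05. All 11 proliferation markers measured were higher, with Cdk1 at 2.55 and Plk1 at 3.11, and sums of 6762 to 18219 in Pemt-/- liver and 551 to 1763 in Pemt+/+ liver. Of 8 cholangiocyte and progenitor markers, 4 were higher and 0 lower, with sums of 2263 to 4977 in Pemt-/- liver and 1114 to 1566 in Pemt+/+ liver, led by Sox4 at 1.67 and Cldn7 at 2.05. Of 5 lymphocyte markers tested, 1 passed as higher, Ptprc at 1.74, which other leukocytes also express. Nkg7 was at 0.76 and did not pass (limma adjusted p = 0.0914). The sums of the lymphocyte list were 1952 to 2868 in Pemt-/- liver and 982 to 1102 in Pemt+/+ liver. Ptprc alone read 1283 to 2181 in Pemt-/- liver and 438 to 571 in Pemt+/+ liver. Of 14 endothelial and lymphatic markers, a list that bears on Prox1, 4 were lower and 1 higher, with Gpr182 at -0.56 and Kdr at -0.62, and sums of 6246 to 12268 in Pemt-/- liver and 9605 to 13340 in Pemt+/+ liver.

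The differences of the members relative to hepatocyte genes were therefore computed with each array centred on its hepatocyte markers, a scaling that moved the median of all tested probe sets to 0.39 and every member by the same 0.38. Cebpa remained lower at -0.40 ± 0.13 (limma adjusted p = 0.0344). The brightest Hnf4a probe set was at -0.25 ± 0.12 and no longer passed (adjusted p = 0.115), and 1421983_s_at was at -0.26 (adjusted p = 0.309). The hepatocyte markers share genes with the HNF4A targets described below, so this centring also removes any fall common to those genes and Hnf4a. Foxa1, Foxa2 and Foxa3 lay at 0.03, 0.05 and 0.03. Onecut1 passed as higher with both probe sets, at 0.73 and 0.71 (adjusted p of 0.0372 and 0.0428), and so did Prox1 1437894_at and 1457432_at, at 0.47 and 0.59 (adjusted p of 0.0376 and 0.0257), where 32.6% of all tested probe sets were called higher. These 4 calls lie 0.075 to 0.34 above the shifted median of all probe sets. With quantile normalization 6 member probe sets were lower, namely those of Cebpa (-0.79), Foxa1 (-0.42), Foxa3 (-0.39), Hnf4a 1427001_s_at (-0.46) and 1421983_s_at, and Nr5a2 1449706_s_at, where 6.4% of all tested probe sets were called lower.

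**Figure D4:**
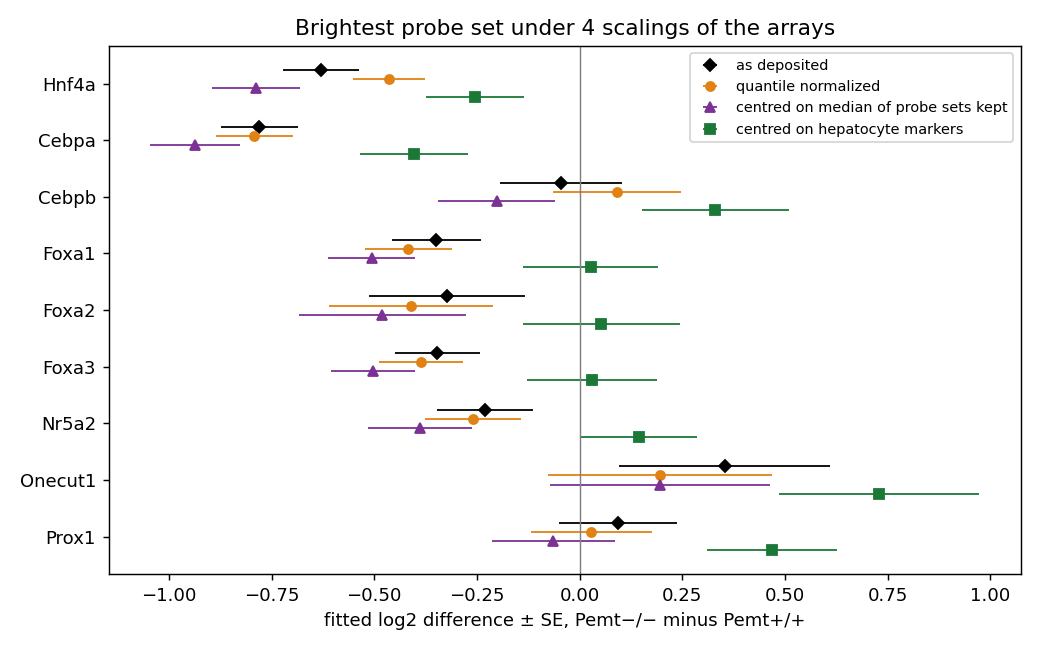
Fitted log2 difference ± SE, Pemt-/- minus Pemt+/+, for the brightest probe set of each member under 4 scalings of the 8 arrays (black diamonds as deposited, orange circles quantile normalized, purple triangles centred on the median of the probe sets kept, green squares centred on the hepatocyte markers). Cebpa lies below 0 under all 4, at -0.40 when centred on the hepatocyte markers, while the Foxa genes lie near 0 under that scaling and Onecut1 lies above 0 throughout.

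Among 36 other liver transcription factors, 34 were measured, of which 2 were higher, 6 lower and 26 did not pass, with a median of -0.10. By the brightest probe set, 12.6% of all genes were called higher and 7.51% lower. The lower ones with the smallest p were Srebf1 (-0.80 ± 0.11) and Mlxipl (-0.61 ± 0.11), which drive fat synthesis in response to insulin and glucose, Klf15 (-0.62 ± 0.10) and Ppara (-0.62 ± 0.12), regulators of fasting metabolism, and Creb3l3 (-0.36 ± 0.08). The higher ones were Rarb (1.00 ± 0.18), a retinoic acid receptor, at 187 to 273 in Pemt-/- liver and 75.2 to 171 in Pemt+/+ liver, and Atf5 (0.41 ± 0.09). The next by p, Cebpd at 0.75, Cebpg at 0.25 and Gata6 at 0.31, did not pass (adjusted p of 0.0645, 0.126 and 0.193). Of Cebpa, Cebpb, Cebpd and Cebpg, only Cebpa passed, and it was lower.

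Among 37 genes known as targets of HNF4A, 31 were measured, of which 20 were lower, 1 higher and 10 did not pass, where 7.51% of all genes were called lower and 12.6% higher. The median was -0.40, close to the -0.41 of the hepatocyte markers, with which the list shares genes. Cyp27a1, a bile acid synthesis enzyme, was at 5361 to 7357 in Pemt-/- liver and 10390 to 13442 in Pemt+/+ liver, a difference of -0.86 ± 0.12 (limma adjusted p = 0.00285). Slc10a1, which takes bile acids up from blood, was at 5799 to 14700 in Pemt-/- liver and 19069 to 21866 in Pemt+/+ liver (2.00-fold lower, limma adjusted p = 0.0097). Otc of the urea cycle was also lower, at -0.54 ± 0.10, and so was Pck1 of gluconeogenesis, at -0.46 ± 0.09. Apoa4, an apolipoprotein, ran the other way, at 27882 to 34001 in Pemt-/- liver and 11851 to 25513 in Pemt+/+ liver (0.58 ± 0.15, adjusted p = 0.031). Cyp7a1, the rate-limiting enzyme of bile acid synthesis, was at 0.56 ± 0.18 and did not pass (adjusted p = 0.0628), nor did Apoc2 at 0.13, Nr1i2 at 0.09 and Nr1i3 at 0.08.

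**Figure D5:**
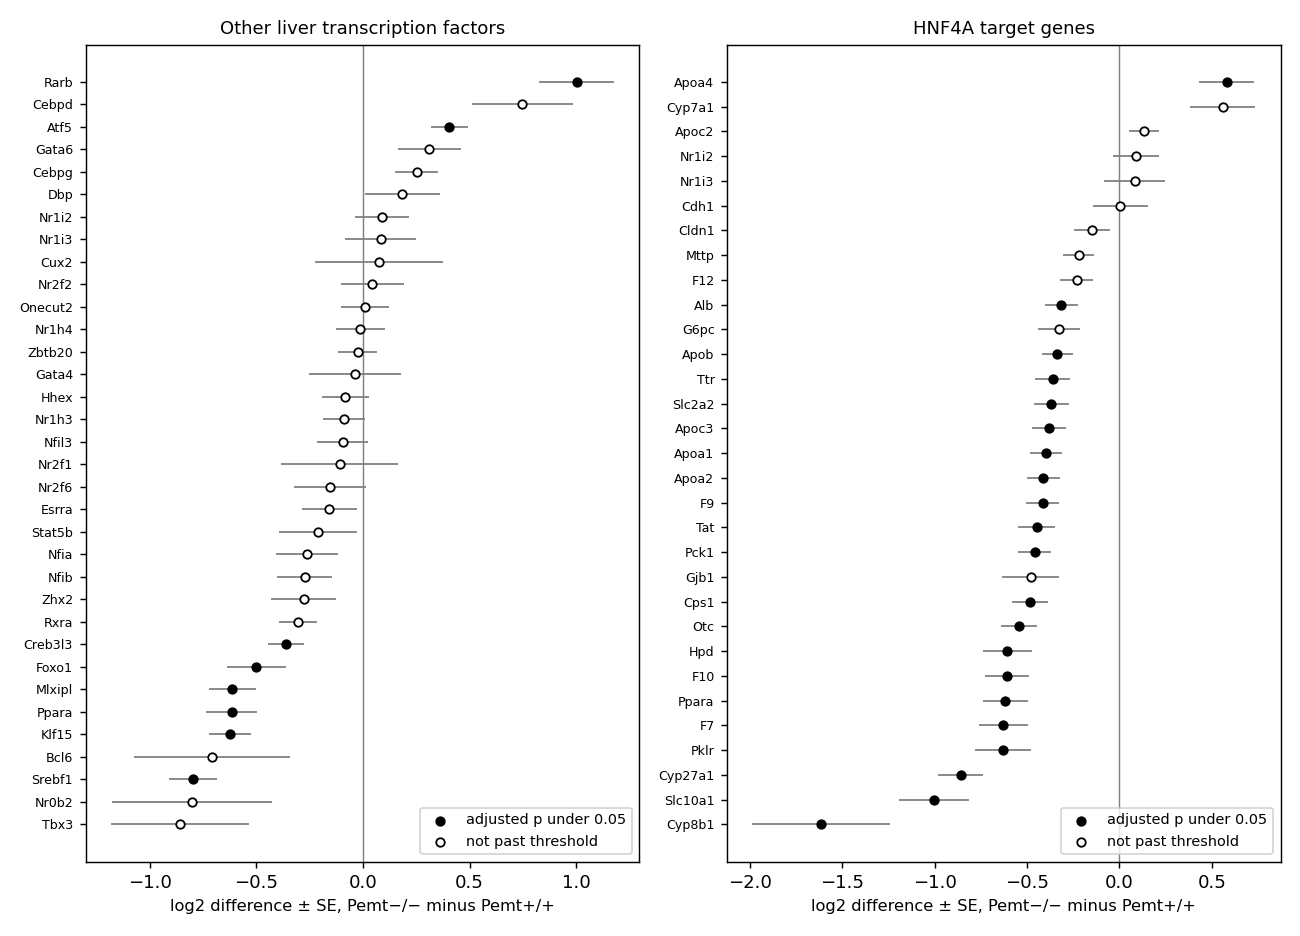
Genotype difference in log2(intensity + 16) ± SE, Pemt-/- minus Pemt+/+, of the brightest probe set of 34 other liver transcription factors (left) and 31 HNF4A target genes (right), ordered by value. Filled points had a limma adjusted p under 0.05, which holds for 8 factors and 21 target genes, and 20 of those target genes lie below 0.

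Genes whose pattern over the 8 arrays was most like that of the brightest Hnf4a probe set were sought among 12940 genes by Pearson's correlation, as a description. The 5 closest were Derl3 (r = 0.987), Gm14634 (0.984), Tspan2 (0.984), Casp14 (0.980) and Creb3l3 (0.980). The genotypes differ in Hnf4a, so any gene that is lower in Pemt-/- liver tends to score high. Derl3, a protein of endoplasmic reticulum-associated degradation, read 549, 379, 271 and 208 in Pemt-/- liver over weeks 1 to 4 and 1124, 1115, 1135 and 768 in Pemt+/+ liver. Creb3l3, a liver transcription factor of the endoplasmic reticulum membrane, read 6578, 6635, 6275 and 5696 in Pemt-/- liver and 8014, 8273, 8540 and 7496 in Pemt+/+ liver. Like the brightest Hnf4a probe set, both had their lowest value of all in Pemt-/- liver at week 4. They were selected for such likeness, so this is not a separate finding.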

How the data were processed

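Liver RNA of 8 samples was hybridized to Affymetrix arrays, 1 per genotype and week. The values used are probe set intensities on a linear scale as deposited by the authors. Affymetrix Expression Console is named in the submitters' processing notes, with the version and the probe summary method not given in the sources used here. Every array had a trimmed mean of 500.0 (2% trimmed from each end).

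Of 45101 probe sets, 64 controls were left out, and 34945 were paired with 1 gene, 932 with several and 9160 were unnamed here. Symbols were updated through Entrez identifiers to RefSeq GRCm38.p6 for 34741. Values were analysed as log2(intensity + 16), which understates changes of dim probe sets, with limma 3.58.1 in R 4.3.3 (lmFit, eBayes with trend, Benjamini-Hochberg). The fits were tested on simulated data.

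The block is the week, because the study compared genotypes within each week. Samples were grouped by their labelled genotype. Every member probe set was named, and of the other lists up to 5 genes per direction (2 per marker list) with the smallest p, and the 5 genes most like Hnf4a. The members and lists were chosen with earlier results of these data known. Other filters, pseudocounts, scalings, tests and fits without each week were tried. Promoters came from RefSeq and were scanned with Python 3.11.15. Protein sequences were not used here.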

Additional observations from a re-analysis of the deposited data

How the results depend on the processing

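The brightest Hnf4a probe set and Cebpa kept their direction under every alternative. Cebpa passed under all of them, and Hnf4a 1427001_s_at under all but centring on the hepatocyte markers, which share genes with the HNF4A targets. The number of member probe sets lower, 3 as reported, was 7 with a filter at the 60th percentile, 6 with quantile normalization, 8 with each array centred on the median of the probe sets kept (chosen after seeing the data) and 1 with centring on the hepatocyte markers, and 2 to 3 without each week. The number higher, 0 as reported, was 4 with centring on the hepatocyte markers and 0 to 0 without each week. No slope difference of a member was called under any alternative (0 to 0 without each week).

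Over all probe sets, 2788 higher and 1584 lower became 8806 and 363 with hepatocyte centring, 1715 and 633 with eBayes without the trend, 1636 and 875 with the methods' t-test, 1334 to 2942 and 484 to 1851 without each week, 1737 higher with 1 probe set per gene (of 12949 tested in place of 27022), and 3280 lower with centring on the probe sets kept. That last scaling put 37.6% of calls higher against 63.8% as deposited, and hepatocyte centring 96.0%. The 17 member pairs of constant order became 12 by the mean over probe sets and 12 with quantile normalization. Leaving out each week gave 18 to 21, a count that cannot fall below 17, since fewer weeks have to keep the order.

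Signs turned under hepatocyte centring for Hnf4a 1427000_at (0.034), Cebpb (0.33 and 0.31), Foxa1 (0.027), Foxa2 (0.053), Foxa3 (0.030), Nr5a2 (0.14 and 0.15), Prox1 1421336_at (0.14) and Creb3l3 (0.016). They turned with centring on the probe sets kept for Prox1 1437894_at (-0.064), Apoc2 (-0.024), Nr1i2 (-0.068) and Nr1i3 (-0.075), and with quantile normalization for Cebpb 1418901_at (0.092). Without each week in turn, the sign changed within the range of Cebpb 1418901_at (-0.18 to 0.11, above 0 without week 1 or 2), Cebpb 1427844_a_at (-0.22 to 0.068, above 0 without week 2), Nr1i2 (-0.030 to 0.17, below 0 without week 2) and Nr1i3 (-0.061 to 0.27, below 0 without week 1 or 2). The turns under both centrings follow from their construction, since hepatocyte centring moved every member probe set by 0.38 and centring on the probe sets kept by -0.16. The cause of the other turns was not tested.

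Arrays of the same week deviated from their genotype's mean with correlations of 0.10, -0.020, -0.029 and 0.11 over weeks 1 to 4. With no replicate block for the week, 2 member probe sets were lower, 2909 of all probe sets were higher and 1710 lower, and Hnf4a 1421983_s_at no longer passed (limma adjusted p = 0.0782), nor did it with eBayes without the trend (0.0947). Precision is limited by having 1 array per genotype and week.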
